A study of Mus musculus with 12 samples.

Results

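The cytotoxic granule genes described here were 9 of the 13780 genes in the count table, namely Prf1, Gzma, Gzmb, Gzmk, Gzmm, Srgn, Serpinb9, Unc13d and Rab27a. They were chosen by symbol, each symbol stood in 1 row, and all 9 passed the filter on low counts (at least 1 CPM in 3 or more libraries, where CPM are counts relative to library size, scaled by trimmed means of M values), as did 13767 genes in all. For Gzma, Gzmk and Gzmm the filter was passed only through the naïve libraries, so their higher level there was built into what was tested.

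RNA was sequenced from CD8+ T cells selected on magnetic beads from the spleens of C57BL/6J mice aged 8 to 12 weeks. Naïve cells were frozen straight after isolation, without activation, treatment or any further sort for a naïve phenotype. Activated cells were cultured for 72 h with beads carrying antibodies to CD3 and CD28 and 10 U/ml recombinant human interleukin-2, with no further addition (media) or with sodium lactate at 40 mM (lactate). Each of the 3 groups held 4 libraries, with 14726904 to 21478137 counted reads per library. The activated libraries came from 5 mice, 3 of them represented in both activated groups, and the naïve libraries from 4. The naïve labels carry no donor tag. Whether these mice also gave activated libraries is not known, so naïve and activated libraries could not be paired by donor. Both activated groups share the beads and the cytokine. The lactate was compared with plain media and not with an equal amount of another sodium salt, so effects of lactate, of sodium and of osmolarity cannot be told apart in these libraries.

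Cytotoxic T cells kill by releasing granules toward a bound target cell. Perforin, encoded by Prf1, forms pores in the target membrane through which granzymes, serine proteases, reach the cytosol and start cell death. Inside the granule both are held by the proteoglycan serglycin (Srgn), the small GTPase Rab27a and its partner Munc13-4 (Unc13d) dock and prime the granule for fusion, and the serpin encoded by Serpinb9 inhibits granzyme B and so protects the killer cell. Naïve CD8+ T cells are known to hold few such granules, which are built after activation.

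The promoters of 4 members are printed because the results on activation and on lactate turn on them. Prf1 and Gzmb were highest with lactate, and Gzma and Gzmk were highest in naïve cells. Each run gives the 250 bases before a RefSeq transcription start, 5′ to 3′ on the strand of the gene, and capitals mark matches to 4 motifs searched on both strands: TGTGGT for RUNX, GGTGTG for T-box, TGANTCA for AP-1 and GGAAAA for NFAT proteins.
Prf1 promoter, GRCm38.p6 chr10:61297586-61297835, plus strand: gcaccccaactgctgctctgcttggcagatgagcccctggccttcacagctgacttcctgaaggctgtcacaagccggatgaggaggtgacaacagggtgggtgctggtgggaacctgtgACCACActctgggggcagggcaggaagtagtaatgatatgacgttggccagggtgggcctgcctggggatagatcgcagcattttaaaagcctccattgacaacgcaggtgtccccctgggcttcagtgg
Gzmb promoter, GRCm38.p6 chr14:56262335-56262584, minus strand: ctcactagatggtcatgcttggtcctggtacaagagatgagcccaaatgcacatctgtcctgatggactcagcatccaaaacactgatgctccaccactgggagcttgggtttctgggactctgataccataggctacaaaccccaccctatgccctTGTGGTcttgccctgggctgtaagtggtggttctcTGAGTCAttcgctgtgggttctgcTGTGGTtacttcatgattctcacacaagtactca
Gzma promoter, GRCm38.p6 chr13:113100982-113101231, minus strand: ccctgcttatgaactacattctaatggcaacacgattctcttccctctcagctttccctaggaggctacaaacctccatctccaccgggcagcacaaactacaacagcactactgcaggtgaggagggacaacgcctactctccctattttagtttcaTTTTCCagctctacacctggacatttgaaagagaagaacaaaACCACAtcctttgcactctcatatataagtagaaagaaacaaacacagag
Gzmk promoter, GRCm38.p6 chr13:113180966-113181215, minus strand: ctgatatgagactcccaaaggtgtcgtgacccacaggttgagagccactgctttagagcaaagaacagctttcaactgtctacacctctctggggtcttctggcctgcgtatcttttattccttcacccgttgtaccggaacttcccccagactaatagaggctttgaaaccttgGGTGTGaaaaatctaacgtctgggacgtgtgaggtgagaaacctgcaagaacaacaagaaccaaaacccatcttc
Promoters were held for 8 of the members, with 11 starts in all, and none was held for Unc13d. A RUNX match stood at 6 of these 11 starts, a T-box match at 4, an NFAT match at 5 and an AP-1 match at 1, that of Gzmb, which also held 2 RUNX matches. Among 32851 promoters of the same length the motifs were found in 14% (RUNX), 16.3% (T-box), 20.4% (NFAT) and 6.75% (AP-1). These are matches of letters only.

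Per gene length, granzyme B was the leading granule transcript of activated cells and serglycin that of naïve cells. In TPM (a level per gene length relative to the whole library, from the counts and the gene lengths of the table), Gzmb averaged 57.6 ± 61.3 (SD, n = 4) in naïve cells, 3496 ± 662 in media and 10270 ± 1660 with lactate, where it was the 6th of the 13767 tested genes by mean TPM. Srgn averaged 640 ± 283, 360.2 ± 40.8 and 579 ± 73.8 TPM, and Prf1 62.6 ± 15.1, 50.04 ± 18.6 and 362 ± 161 TPM in the same order of groups. With lactate the order of mean TPM was Gzmb, Srgn, Prf1, Rab27a, Unc13d, Serpinb9, Gzmm, Gzma and Gzmk, and only the neighbours Srgn and Prf1, and Gzmm and Gzma, had ranges that overlapped. In media the order was Gzmb, Srgn, Rab27a, Unc13d, Prf1, Serpinb9, Gzma, Gzmk and Gzmm, with overlap between Prf1 and Serpinb9 and among the last 3. In naïve cells Srgn stood first without overlap, the ranges of each pair of neighbours overlapped from Unc13d through Gzma, Rab27a, Prf1 and Gzmb to Serpinb9, and Gzmm and Gzmk followed without overlap.

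**Figure D1:**
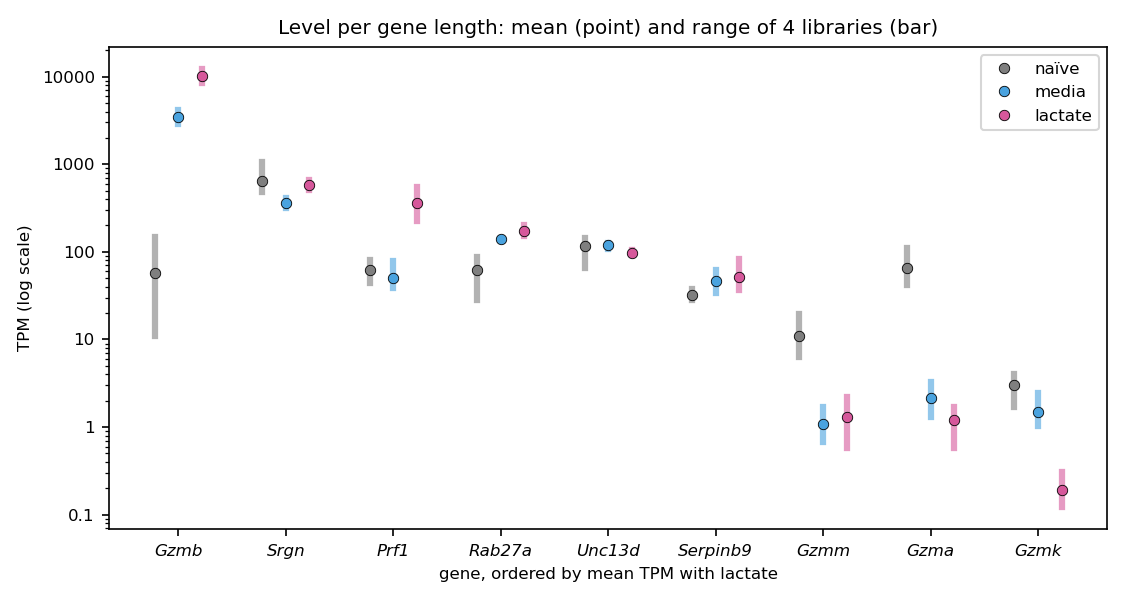
TPM of each granule gene on a log axis, with the mean of 4 libraries as a point and their range as a bar, for naïve, media and lactate cells. Gzmb has a mean of 3496 TPM in media and 10270 TPM with lactate, whereas Gzma, Gzmk and Gzmm lie at or under 2.13 TPM on average in both activated groups.

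The design asks which granule genes changed when cells were activated in media, which changed with lactate against media, and where cells activated with lactate stood against naïve cells. Tests were edgeR's quasi-likelihood F test over all 12 libraries with Benjamini-Hochberg adjustment over the 13767 genes, called at an adjusted p of at most 0.01, and log2 fold changes are given ± SE. With lactate against media, 2 of the 9 members were called, 1 higher (Prf1) and 1 lower (Gzmk), where 25.1% of all tested genes were called (13.9% higher and 11.1% lower). The 4 lactate and the 4 media libraries did not overlap for 6 members (Prf1, Gzmb, Gzmk, Srgn, Unc13d and Rab27a), against 44.7% of all tested genes. For media against naïve cells, 5 members were called, 2 higher (Gzmb, Rab27a) and 3 lower (Gzma, Gzmm, Srgn), and these 5 did not overlap, where 57.5% of all genes were called (28.5% higher, 29% lower) and 61.2% did not overlap. For lactate against naïve cells, 7 members were called, 4 higher (Prf1, Gzmb, Serpinb9, Rab27a) and 3 lower (Gzma, Gzmk, Gzmm), with the same 7 not overlapping, beside 65% of all genes called (33% higher, 32% lower) and 67.8% not overlapping. The comparisons share libraries and are not independent of each other. Gzma, Gzmk and Gzmm passed the filter only through the naïve libraries. Their calls and lack of overlap against naïve cells are therefore no independent support. All values are per library RNA, and in such bulk samples fewer cells with a transcript and less of it per cell cannot be told apart.

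**Figure D2:**
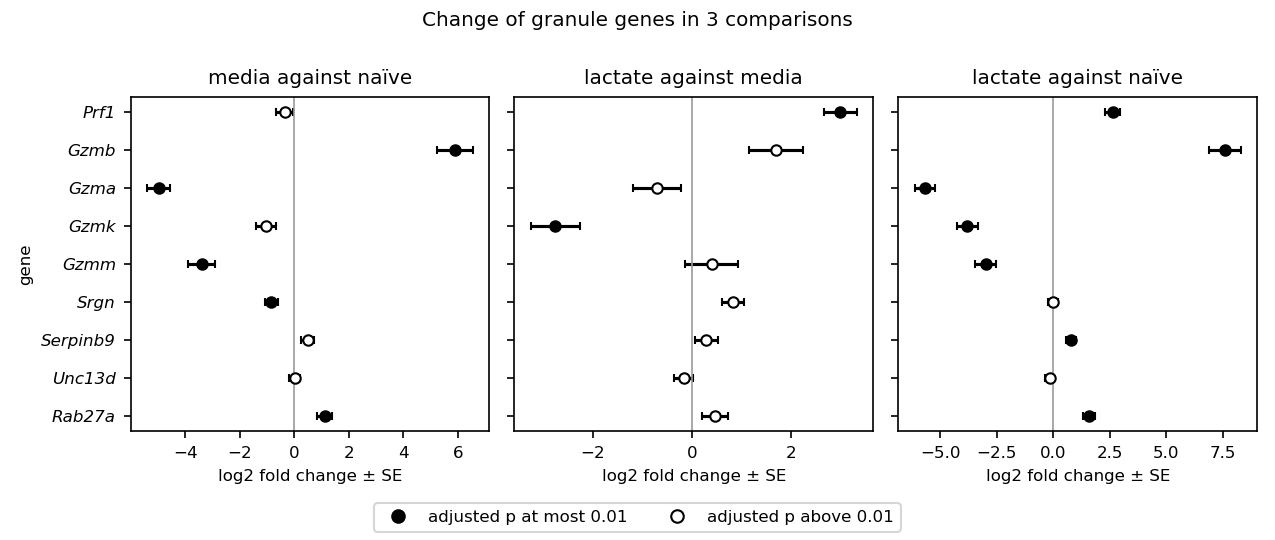
Log2 fold change ± SE of each granule gene (rows) in 3 comparisons (panels), filled where the adjusted p of edgeR's quasi-likelihood test was at most 0.01. With lactate against media, the filled points are Prf1 at 2.99 and Gzmk at -2.76, and Gzmb lies at 1.69 with an open point.

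Naïve library 4 stood apart from the other naïve libraries. Its summed level of 5 CD8+ T cell markers (Cd3d, Cd3e, Cd3g, Cd8a, Cd8b1) was 1580 CPM against 2640 to 3580 CPM, and Trdc and Sox13, genes of gamma delta T cells, summed to 7.23 CPM against 267 to 361 CPM. After activation Trdc and Sox13 summed to 90.9 to 121 CPM in media and 63.2 to 87.7 CPM with lactate. Other cell types were also seen in the naïve group, where the markers of B cells summed to 467 to 1130 CPM and those of myeloid cells to 476 to 1540 CPM, against at most 18.7 CPM in any activated library. Markers of CD4+ T cells (Cd4, Foxp3, Zbtb7b) summed to 26.1 to 55.3 CPM in naïve cells. They summed to 44.6 to 55.8 CPM in media and 76 to 89.4 CPM with lactate. Zbtb7b made up most of the activated sums, and Cd4 was at most 0.99 CPM in any activated library. Red cell markers summed to 956, 3500, 385 and 85.1 CPM in the naïve libraries, highest in library 2, and to at most 1.9 CPM in any activated library. The part of these cells in the naïve levels of the members, and of the other genes named below, was not tested. A member's value is given below also without a naïve library where that changed its call or moved it by more than 1.5 times. Markers of CD8+ T cells were present in all 12 libraries, at 2740 to 3460 CPM in media and 2050 to 2610 CPM with lactate. No pair of libraries within a group was a duplicate, and pairs across groups were not compared.

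**Figure D3:**
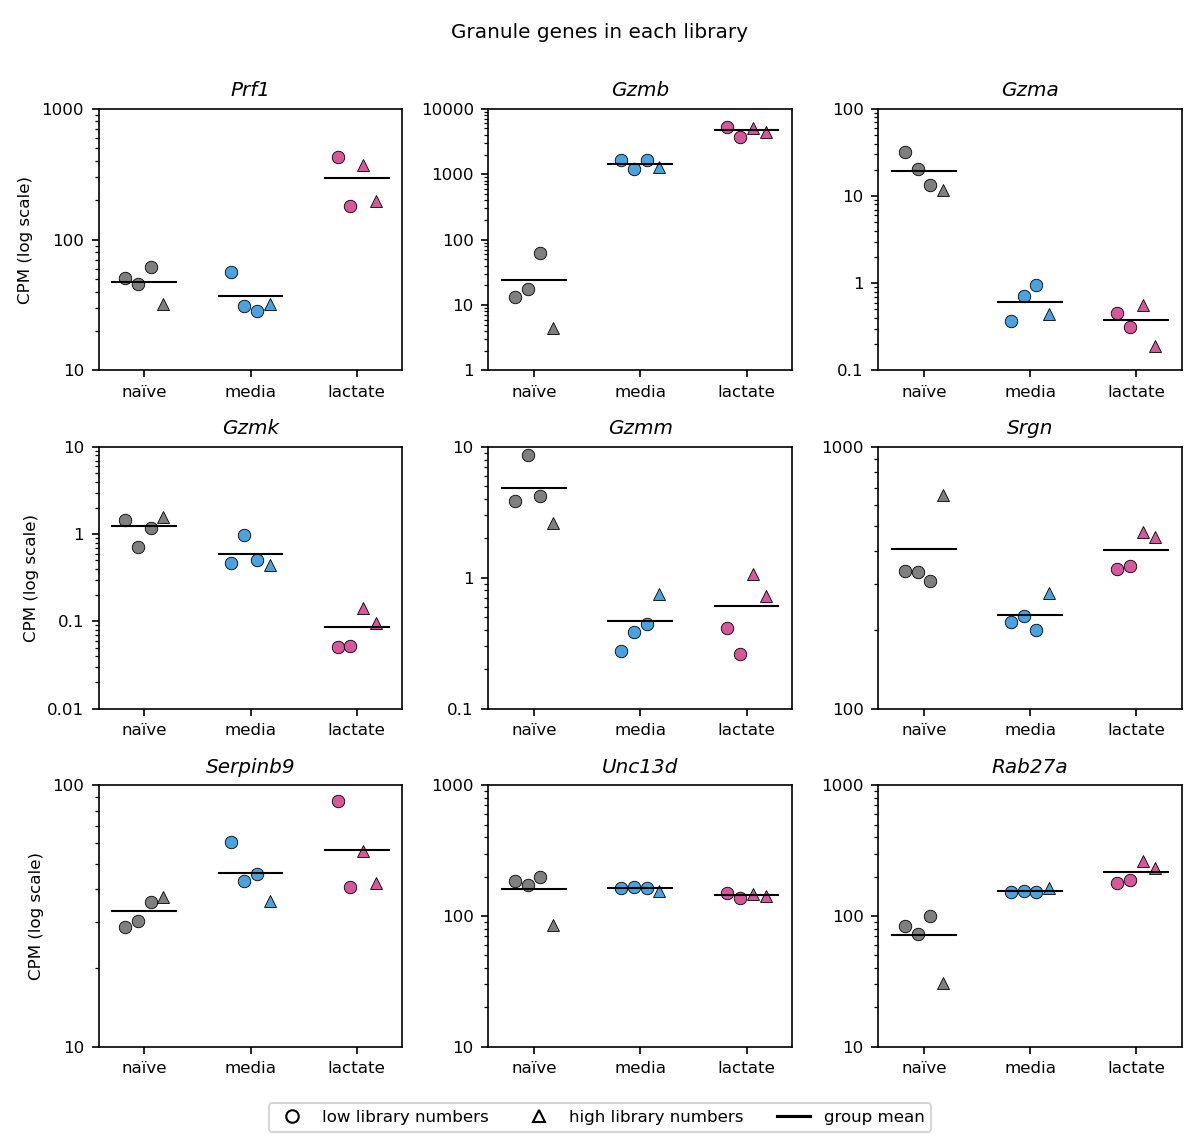
CPM of each granule gene in each of the 12 libraries on log axes, with circles for libraries of low and triangles for those of high library numbers and a line at each group mean. All 4 lactate points lie above all media points for Prf1, Gzmb, Srgn and Rab27a. Naïve library 4 is the highest naïve point of Gzmk, Srgn and Serpinb9 and the lowest of Prf1, Gzma, Gzmb, Gzmm, Unc13d and Rab27a.

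Perforin was the member with the smallest adjusted p for lactate against media. Prf1 (ENSMUSG00000037202, GRCm38 chr10:61297833-61304680) stood at 50.7, 46.1, 61.2 and 32.4 CPM in the naïve libraries, 56.7, 31.3, 28.5 and 32.1 CPM in media and 431, 180.0, 373 and 197 CPM with lactate. Every lactate library was above every media and naïve library, while media and naïve libraries overlapped. Prf1 rose with lactate by 2.99 ± 0.333 on the log2 scale against media, which is 7.93-fold (adjusted p = 8.01e-05), and by 2.63 ± 0.328 against naïve cells (adjusted p = 1.12e-05). Media against naïve cells gave -0.36 ± 0.313 (adjusted p = 0.332). Under all alternative settings run, the lactate increase over media was called, with log2 fold changes from 2.73 to 3.27. Within the 4 lactate libraries, Prf1 spread from 180.0 to 431 CPM, and its lowest value was above the highest media value, 56.7 CPM.

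Granzyme B rose on activation and was higher again in every lactate library. Gzmb (ENSMUSG00000015437, chr14:56258838-56262260) encodes the granzyme that cleaves caspases and their substrates in the target cell. Its CPM were 13.4, 17.5, 62.4 and 4.43 in naïve cells, 1629, 1181, 1677 and 1292 in media and 5307, 3733, 5157 and 4490.1 with lactate. No group overlapped another, and the naïve libraries spread far more, relative to their mean, than the activated ones. Gzmb rose by 5.88 ± 0.658 in media against naïve cells (adjusted p = 5.86e-06) and by 7.58 ± 0.71 with lactate against naïve cells (adjusted p = 9.37e-07). Without naïve library 3, the highest of them at 62.4 CPM, these differences were 6.87 ± 0.444 and 8.55 ± 0.477, and without naïve library 4, the lowest, 5.53 ± 0.516 and 7.22 ± 0.559.

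For lactate against media the difference in Gzmb was 1.69 ± 0.545, which is 3.23-fold, with an adjusted p of 0.0261, which did not pass the threshold. The dispersion in this fit takes in the naïve libraries. Fitted to the 8 activated libraries alone, the difference was 1.70 ± 0.152 (adjusted p = 8.84e-05), and without naïve library 3 or naïve library 4 the adjusted p was 0.00145 and 0.00323. With the donor as a block it was 0.199 over all 12 libraries and 0.00033 over the 8 activated ones. The increase was seen within each of the 3 donors with both libraries, at 3.26-, 2.23- and 3.48-fold. A two-sided exact permutation test of log2(CPM + 0.5), 4 against 4, gave p = 0.0286, the smallest that its 70 arrangements allow. Because the lactate and media libraries did not overlap, this p and the direction within donors were fixed and add no separate support.

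Granzyme A was a transcript of the naïve libraries, through which alone it passed the filter, so a fall against them was favoured in advance. Gzma (ENSMUSG00000023132, chr13:113093825-113100981) encodes a tryptase-like granzyme. It was at 32.3, 20.4, 13.4 and 11.7 CPM in naïve cells, from 209 to 574 counts, and at 0.370, 0.709, 0.948 and 0.439 CPM in media and 0.461, 0.314, 0.566 and 0.193 CPM with lactate, from 4 to 17 counts per library. Both activated groups lay under all naïve libraries and overlapped each other. Gzma fell by 4.97 ± 0.428 on the log2 scale in media (adjusted p = 6.28e-07) against naïve cells, lactate against naïve cells gave -5.68 ± 0.453 (adjusted p = 2.35e-07), and lactate against media gave -0.71 ± 0.489 (adjusted p = 0.277). From summed counts the naïve level was 31.8 times that of media (95% exact interval 23.6 to 43.8, for counting error only).

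Granzyme M was likewise higher in naïve cells than in both activated groups, and it too passed the filter only through the naïve libraries. Gzmm (ENSMUSG00000054206, chr10:79689020-79695261), whose product cleaves after methionine and leucine, was at 3.83, 8.71, 4.2 and 2.63 CPM in naïve cells, 0.277, 0.382, 0.446 and 0.752 CPM in media and 0.410, 0.262, 1.06 and 0.723 CPM with lactate. Media and lactate libraries overlapped, and all 8 lay under the naïve libraries. It fell by 3.39 ± 0.495 in media (adjusted p = 5.7e-05) against naïve cells, and lactate against naïve cells gave -2.996 ± 0.481 (adjusted p = 9.97e-05). Lactate against media gave 0.39 ± 0.531 (adjusted p = 0.597), from 33 counts in all media and 43 in all lactate libraries.

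Granzyme K was the member that fell with lactate, at low counts. Gzmk (ENSMUSG00000042385, chr13:113171608-113225908), like Gzma, encodes a tryptase-like granzyme. It had 26, 12, 22 and 28 counts in naïve libraries, 10, 18, 9 and 7 in media and 1, 1, 2 and 2 with lactate. In CPM the media libraries were at 0.462, 0.982, 0.502 and 0.439 and the lactate libraries at 0.0512, 0.0524, 0.141 and 0.0964. All lactate libraries lay under all others, and media overlapped the naïve libraries, which were at 0.721 to 1.57 CPM. Gzmk fell by 2.76 ± 0.496 with lactate against media (adjusted p = 0.00105), and lactate against naïve cells gave -3.80 ± 0.47 (adjusted p = 1.04e-05). The filter, passed only through naïve libraries, favoured a fall against naïve cells. Scaled to the library sizes, the 44 counts in media and 6 with lactate gave a ratio of 7.3, with a 95% counting interval of 3.1 to 21.

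The call for Gzmk depended on the fit. With the donor as a block the difference from media was -2.69 with an adjusted p of 0.0151. Without naïve library 1, 3 or 4, and in the fit of the activated libraries alone, Gzmk no longer passed the filter and could not be fitted. For media against naïve cells it gave -1.04 ± 0.358 (adjusted p = 0.0203), and the adjusted p was 0.00494 without naïve library 2 and 0.00478 without media library 2, which was the highest media library at 0.982 CPM.

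Markers of natural killer cells, which carry granzyme A and perforin before any stimulation, were higher in the naïve group, apart from Klre1. Ncr1, Klrb1c, Klre1, Tyrobp and Fcer1g were all detected there and summed to 278, 212, 86.3 and 101 CPM in the naïve libraries, against 1.36 to 1.88 CPM in media, with Ncr1 at 0, and 2.67 to 7.48 CPM with lactate. Tyrobp and Fcer1g, which myeloid cells also express, made up most of that sum, and Ncr1 was at 1.56 to 4.62 CPM in naïve cells. Klre1 overlapped between naïve (1.94 to 5.65 CPM) and lactate cells (1.99 to 4.77 CPM) and was at 0.709 to 1.32 CPM in media. The part of these cells in the naïve levels of Gzma, Gzmm, Gzmk and Prf1 was not tested.

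The mix of the 4 granzymes differed between naïve and activated cells. Gzmb made up 17.5% to 71.8% of their summed TPM in the naïve libraries, 99.8% to 99.9% in media and at least 99.96% with lactate. Gzma made up 22.03% to 71.3% in naïve cells and at most 0.0856% in any activated library. Relative to perforin, granzyme B had 51.7 to 106 times the TPM in media and 22.2 to 41.1 times with lactate, which do not overlap. Relative to its inhibitor Serpinb9 the ratio was 65.2 to 89.4 in media and 148 to 257 with lactate.

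Serglycin was lower in media than in both other groups. Srgn (ENSMUSG00000020077, chr10:62493833-62527451) was at 336, 333, 308 and 655 CPM in naïve cells, 213, 225, 199.6 and 277 CPM in media and 343, 349, 475 and 454 CPM with lactate. The media libraries lay under all naïve and all lactate libraries, and these overlapped. Srgn fell by 0.83 ± 0.227 in media against naïve cells (adjusted p = 0.00559), and lactate against naïve cells gave -0.01 ± 0.225 (adjusted p = 0.968), or 0.31 (adjusted p = 0.0633) without naïve library 4. The fall in media was by 0.52 (adjusted p = 0.00539) without naïve library 4, and it lost its call without media library 1, 2 or 3, at adjusted p values of 0.0177, 0.0152 and 0.0196.

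Lactate against media gave 0.82 ± 0.227 for Srgn, which is 1.77-fold, with an adjusted p of 0.0123, just outside the threshold. The adjusted p was 0.00067 in the fit of the 8 activated libraries, 0.000352 without naïve library 4, 0.0033 with DESeq2 and, with the donor as a block, 0.105 over all 12 libraries and 0.000679 over the 8 activated ones. Within the 3 donors Srgn was 1.60, 1.75 and 1.64 times as high with lactate. The exact permutation p was 0.0286, and both it and the direction within donors follow from the groups not overlapping. Serglycin is also made by myeloid cells, whose markers summed to 476 to 1540 CPM in the naïve libraries and to at most 18.7 CPM after activation, and their part in the naïve level was not tested.

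Serpinb9 had small fold changes in each comparison. The gene (ENSMUSG00000045827, chr13:33003250-33017957) was at 28.7, 30.2, 35.7 and 37.4 CPM in naïve cells, 60.8, 42.9, 45.6 and 36.0 CPM in media and 87.1, 40.7, 55.8 and 42.4 CPM with lactate. The lactate and media libraries overlapped, and in both groups library 1, from the same donor, was the highest. Serpinb9 rose with lactate against naïve cells by 0.78 ± 0.234 (adjusted p = 0.00907). This call was lost without naïve library 1, 2, 3 or 4, media library 2, 3 or 4, or lactate library 1 or 3, at adjusted p values from 0.0104 to 0.043. Media against naïve cells gave 0.49 ± 0.233 (adjusted p = 0.0787) and lactate against media 0.29 ± 0.232 (adjusted p = 0.357).

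Of the genes of granule docking and priming, Rab27a rose on activation and Unc13d was called in no comparison. Rab27a (ENSMUSG00000032202, chr9:73044854-73097629) was at 83.6, 73.4, 100.2 and 30.8 CPM in naïve cells, 153, 154, 151 and 164 CPM in media and 179.8, 188, 261 and 233 CPM with lactate. The 3 groups did not overlap. Rab27a rose by 1.11 ± 0.268 in media (adjusted p = 0.00253) and by 1.58 ± 0.271 with lactate (adjusted p = 0.000167) against naïve cells. Lactate against media gave 0.47 ± 0.264, or 1.38-fold (adjusted p = 0.181), with an adjusted p of 0.00598 among the 8 activated libraries alone and of 0.00929 without naïve library 4. With the donor as a block it was 0.542 over all 12 libraries and 0.0165 over the 8 activated ones. A share of 3.84% of its exon bases overlaps Gm27186 on the same strand.

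Unc13d (ENSMUSG00000057948, chr11:116062095-116077961), which encodes the priming factor Munc13-4, ranged from 137 to 199.6 CPM in 11 of the 12 libraries. It was at 184, 173, 199.6 and 85.8 CPM in naïve cells, 164, 166, 165 and 155 CPM in media and 150, 137, 146 and 143 CPM with lactate. The lactate libraries all lay under the media libraries by a small margin, and naïve library 4 lay under all others. No comparison was called, with 0.01 ± 0.194 for media against naïve (adjusted p = 0.953), -0.17 ± 0.194 for lactate against media (adjusted p = 0.52) and -0.16 ± 0.194 for lactate against naïve cells (adjusted p = 0.482). Without naïve library 4 the last of these was -0.37 with an adjusted p of 0.000448, and media against naïve was -0.20 (adjusted p = 0.0244).

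The 3 donors with a library in each activated group gave the same direction as the group means for 6 members. These were the members whose lactate and media libraries did not overlap, which fixes the direction within donors. Only the sizes add to it. Prf1 was 7.6, 6.31 and 6.13 times as high with lactate in donors WT1 and WT3 of the low library numbers and WT2 of the high ones. Rab27a was 1.17, 1.24 and 1.42 times and Unc13d 0.915, 0.834 and 0.928 times the media level in the same donors. Gzmk was lower with lactate in all 3, at 0.111, 0.105 and 0.220 times the media level. For Serpinb9 2 of the 3 donors were higher with lactate, and for Gzma and Gzmm 1 of 3 each.

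Library numbers in the labels fell into a low run of 1 to 9 and a high run of 16 to 26, each with both activated groups. Within the low run, with 3 media and 2 lactate libraries, the difference in mean log2(CPM + 0.5) between lactate and media was 2.89 for Prf1, 1.59 for Gzmb, 0.70 for Srgn and 0.26 for Rab27a. Within the high run, with 1 media and 2 lactate libraries, it was 3.06, 1.90, 0.74 and 0.59. The sign was the same in both runs for each of the members except Gzmm, which gave -0.06 and 0.14. For the members whose lactate and media libraries did not overlap, this sign was fixed as well. The test of the difference in the lactate effect between runs called 0 members and 0 of the 13767 genes, with 251 genes at an unadjusted p under 0.05, and edgeR's likelihood ratio test also called 0 members. The lowest unadjusted p of a member was 0.147, for Rab27a.

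**Figure D4:**
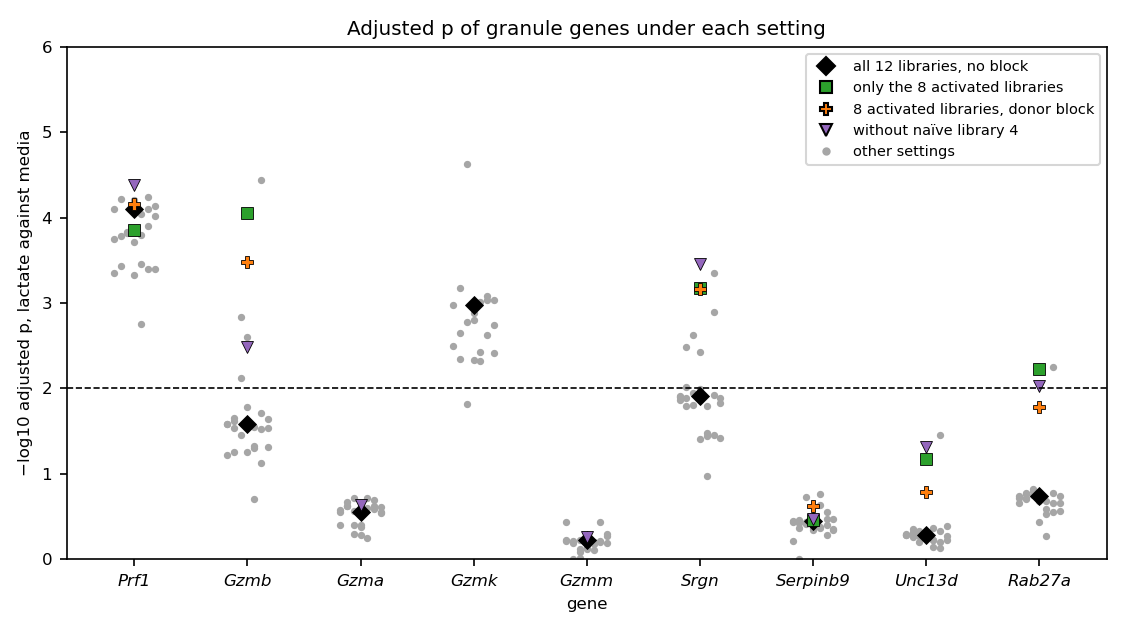
Adjusted p of each granule gene for lactate against media, as -log10, under each setting run, with the threshold of 0.01 as a line. Prf1 passes under each setting, with 2 settings above the end of the axis at 1.79e-18 (DESeq2) and 3.84e-16 (likelihood ratio test), and Gzmb, Gzmk, Srgn and Rab27a have settings on both sides of the line.

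Genes that act around the members were taken from lists written from general knowledge. Of 11 genes of granule cargo and sorting, 2 rose and 2 fell with lactate against media, beside 25.1% of all tested genes called, with a list median of -0.01 beside -0.00158 over all tested genes. Cd63, a tetraspanin of the granule membrane, rose by 2.76 ± 0.348 (adjusted p = 0.000133), from 1.04 ± 0.389 to 7.04 ± 0.596 CPM (SD, n = 4), and media against naïve cells gave -2.61 (adjusted p = 2.65e-05). Calr, which encodes the chaperone calreticulin, found in granules as well, rose by 0.70 ± 0.1 (adjusted p = 0.000272). Gnptab, a subunit of the enzyme that makes the mannose 6-phosphate tag for lysosomal sorting, fell by 0.56 ± 0.104 (adjusted p = 0.00129), and Ctsw, a cathepsin of cytotoxic lymphocytes, by 0.88 ± 0.189 (adjusted p = 0.00304). The 7 others were not called, and with the donor as a block 2 of the 11 were, Cd63 (adjusted p = 0.00791) and Calr (adjusted p = 0.00883), or 6 over the 8 activated libraries alone, where these fits called 7.21% and 29.3% of all tested genes. Against naïve cells the list had 3 genes higher and 4 lower in both media and lactate cells, beside 57.5% and 65% of all genes called. Gnptab rose by 2.15 in media (adjusted p = 9.74e-09) and by 1.59 with lactate (adjusted p = 5.72e-08), and Ctsc, the protease that activates granzymes, fell by 1.25 (adjusted p = 9.69e-05) and 1.23 (adjusted p = 8.84e-05). The part of other cell types in the naïve levels of this and the other lists was not tested.

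Of 21 tested genes of granule transport and exocytosis, 3 rose and 4 fell with lactate against media, beside 25.1% of all tested genes called, with a median of 0.16. Those with the smallest adjusted p were Rab7, a GTPase of late endosomes and lysosomes (0.63 ± 0.116, adjusted p = 0.00121), Stx7, a syntaxin of late endosomes (0.65 ± 0.123, adjusted p = 0.00146), Lyst, a regulator of lysosome size (-0.86 ± 0.194, adjusted p = 0.00417) and Stx11, the syntaxin needed for granule fusion (0.74 ± 0.17, adjusted p = 0.00432). The total of 7 calls became 4 without media library 1, media library 3 or lactate library 3, 2 without media library 2 or lactate library 4, and 10 without naïve library 4. With the donor as a block in edgeR it was 0, with 10 of the 21 genes at an unadjusted p under 0.05, or 8 over the 8 activated libraries alone. The shares of all tested genes called in these donor-block fits are those given above for the cargo list. In media against naïve cells 8 of the 21 rose and 5 fell, and with lactate against naïve cells 9 rose and 3 fell, beside 57.5% and 65% of all genes called. Stx11 rose by 2.01 in media (adjusted p = 8.3e-07) and by 2.75 with lactate (adjusted p = 5.21e-08).

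Among other serine protease inhibitors, 5 were tested, and Serpinb1a, which encodes an inhibitor of neutrophil-type proteases, fell by 2.36 ± 0.466 with lactate against media (adjusted p = 0.00186), with means of 1.64 ± 0.896 CPM and, in media, 8.53 ± 5.25 CPM. With the donor as a block it gave -1.82 (adjusted p = 0.0256), or -1.78 over the 8 activated libraries alone (adjusted p = 0.0044). Against naïve cells it gave -1.49 in media (adjusted p = 0.00764) and -3.85 with lactate (adjusted p = 1.18e-05). Serpinb6a (0.21), Serpinb6b (0.10), Serpina3f (-0.76) and Serpina3g (0.38) were not called. Against naïve cells Serpinb6b rose by 2.67 in media (adjusted p = 1.28e-07) and by 2.77 with lactate (adjusted p = 6.86e-08), and Serpina3g fell by 2.64 (adjusted p = 0.000938) and 2.26 (adjusted p = 0.00214). Of the other granzymes Gzmc alone was analysed here. With naïve cells at 0.128 ± 0.107 CPM, it passed the filter only through activated libraries. A rise against naïve cells was thus favoured in advance and is no independent support. Gzmc rose by 3.61 in media (adjusted p = 3.17e-05) and by 4.03 with lactate (adjusted p = 8.59e-06) against naïve cells, to 1.63 ± 0.582 and 2.19 ± 0.614 CPM. Lactate against media gave 0.42 ± 0.367 (adjusted p = 0.394).

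The death ligand Fasl, which kills without granules, rose by 2.55 in media (adjusted p = 6.56e-06) and by 3.20 with lactate (adjusted p = 7.87e-07) against naïve cells, and Tnfsf10 was not called in any comparison. Lactate against media gave 0.65 ± 0.264 for Fasl (adjusted p = 0.0677). Of 4 transcription factors known to act on granule genes, 3 rose and 1 fell in media against naïve cells, beside 57.5% of all tested genes called. With lactate against media 1 rose and 1 fell, beside 25.1% of all tested genes called. Eomes, a T-box factor of Prf1 and Gzmb, fell by 2.74 in media against naïve cells (adjusted p = 9.5e-06) and rose by 1.86 ± 0.318 with lactate against media (adjusted p = 0.000783), from 4.99 ± 1.31 to 18.1 ± 9.06 CPM. Runx3 rose by 1.01 in media against naïve cells (adjusted p = 0.000137) and fell by 0.63 ± 0.163 with lactate against media (adjusted p = 0.00882). The total of 2 calls for lactate against media became 3 without naïve library 3 or 4. It became 1 without naïve library 1 or 2, media library 1, 2 or 3, or any of the 4 lactate libraries. With the donor as a block it was 1, Eomes (adjusted p = 0.00626), or 3 over the 8 activated libraries alone. The shares of all tested genes called in these donor-block fits are those given above for the cargo list. Tbx21 and Prdm1 rose in media by 1.96 (adjusted p = 1.28e-05) and 2.00 (adjusted p = 5.81e-06) against naïve cells, and gave 0.38 (adjusted p = 0.213) and -0.74 (adjusted p = 0.0161) for lactate against media. With lactate against naïve cells Tbx21 rose by 2.34 (adjusted p = 2.29e-06) and Prdm1 by 1.27 (adjusted p = 0.000196), whereas Eomes gave -0.89 (adjusted p = 0.0174) and Runx3 0.38 (adjusted p = 0.0506).

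**Figure D5:**
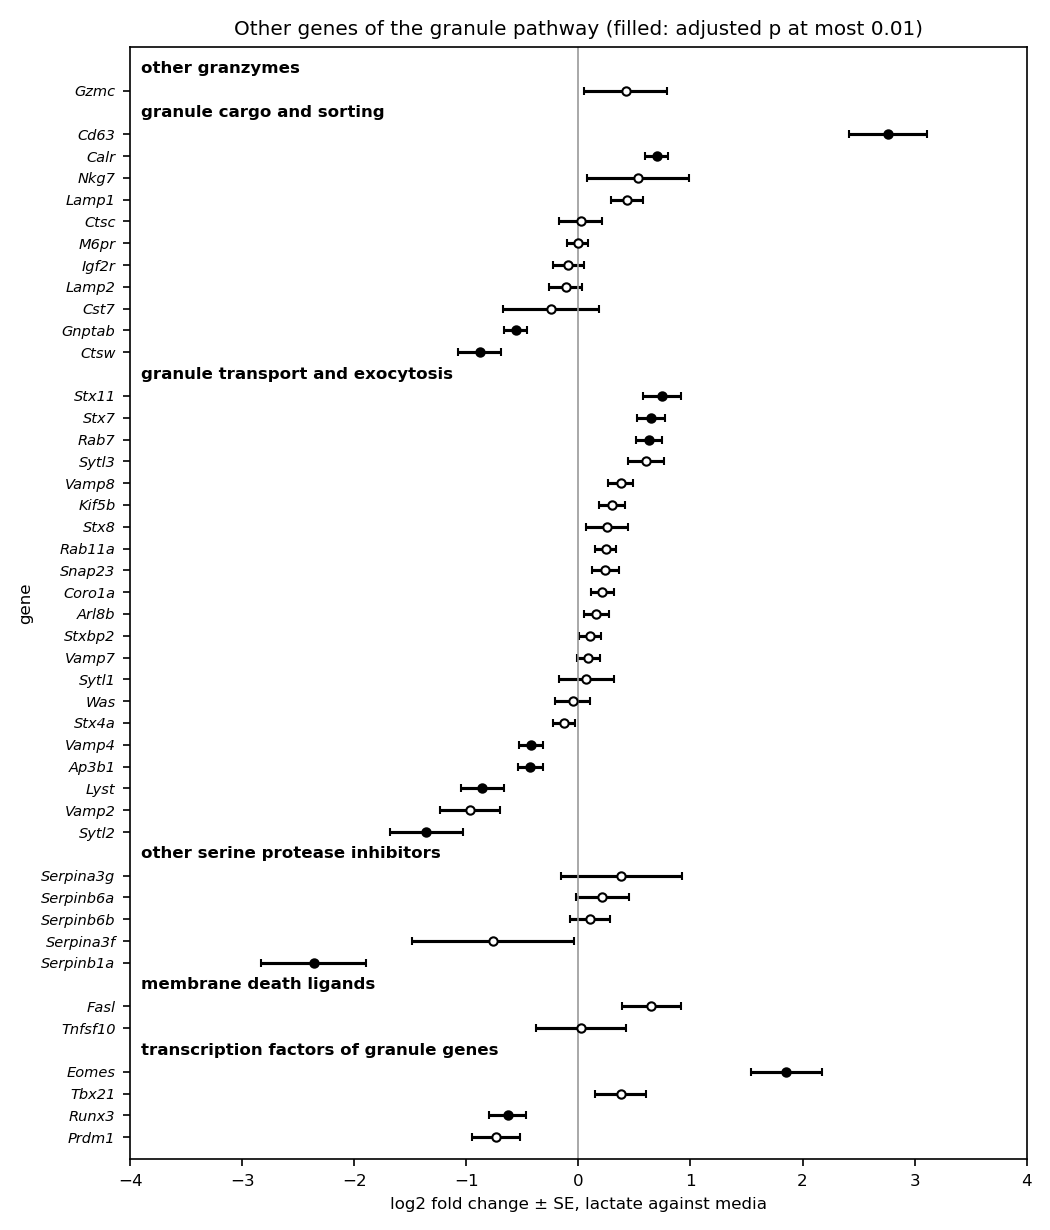
Log2 fold change ± SE for lactate against media of the listed genes around the members, by list, filled where the adjusted p was at most 0.01. Cd63 at 2.76 and Eomes at 1.86 lie farthest to the right and Serpinb1a at -2.36 farthest to the left.

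For each member the genes with the most similar profile were sought among 10301 other genes with a mean of at least 5 CPM, by the root-mean-square difference of log2(CPM + 0.5), each gene centred on its own mean, over the 12 libraries. Smaller values mean closer profiles, and all genes share the libraries. Nearest to Prf1 were Srm (0.48) and Adamts14 (0.546), with Srm at means of 40.7, 35.3 and 161 CPM in naïve, media and lactate cells. Nearest to Gzmb were Gm17767 (0.852) and Egln3 (1.0), farther than for any other member. Gzma was nearest to Hk3 (0.305) and Fcrl1 (0.332), which had means of 31.4 and 40.4 CPM in naïve cells and at most 1.43 CPM after activation. Gzmm was nearest to Btg1 (0.334) and Acot2 (0.344), and Gzmk to Bicra (0.15). At levels near the added 0.5 CPM this scale shrinks changes. For Gzmk, lactate against media was -0.88 on it and -2.76 in the fit. The small distances for Gzma, Gzmm and Gzmk therefore do not mean equal fold changes. For Srgn they were Tbc1d25 (0.15) and Rab35 (0.163), for Serpinb9 Rad54l2 (0.175) and Nup155 (0.192), for Unc13d Cep41 (0.0868) and Iqgap2 (0.101) and for Rab27a Pvt1 (0.207) and Mettl26 (0.221).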

How the data were processed

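The deposited table holds raw counts per gene that the authors made from stranded poly(A) libraries: base calls were converted with bcl2fastq 2.20.0.422, reads aligned to GRCm38 with STAR 2.7.5b, PCR duplicates removed and unique reads assigned to exons with featureCounts. The strand setting is not given in the sources used here. Groups, donor tags and library numbers came from the sample labels, with donor tags read separately per run of library numbers. A minimum of 1 CPM in 3 of the 12 libraries dropped 13 genes, and counts were fitted in R 4.3.3 with edgeR 4.0.16 (TMM scaling, 1 quasi-likelihood model with 3 groups), tested on simulated data beforehand. The standard error is the log2 fold change over the root of F. Alternatives were other tests (limma 3.58.1, DESeq2 1.42.0, likelihood ratio), scalings, filters and thresholds, fits of the compared groups alone, blocks by donor or title number, a term for the run, thinning, and leaving out each library. TPM used the lengths in the table, and intervals and floors cover counting error only. Locations are those of GENCODE M21 and promoters those of RefSeq. Samples of 1 donor were paired by the labels. Deviations from the group means correlated across genes at 0.411, 0.188 and 0.609 for these 3 media and lactate pairs, and at up to 0.427 for pairs of different donors in 1 run, so the correlations do not separate donor from run. Text names all members, up to 4 called genes per list and comparison by smallest adjusted p, every gene of lists of 6 or fewer, and the 2 nearest profiles, except 1 gene that is not reported here. The members and lists were chosen with earlier results of these data known.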

Additional observations from a re-analysis of the deposited data

Results flagged for a closer look

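Each of the 27 sets of 4 libraries (9 members in 3 groups) was checked for a library whose gap to its nearest neighbour is large against the range of the set, by Dixon's criterion, which chance alone meets in about 1 in 20 sets. It was met in 3. Prf1 in media library 1, at 56.7 CPM, stood above the other media libraries at 28.5 to 32.1 CPM. Gzmk in media library 2, at 0.982 CPM, stood above the others at 0.439 to 0.502 CPM, from 18 counts against 7 to 10. Srgn in naïve library 4, at 655 CPM, stood above the others at 308 to 336 CPM. That library also had the highest naïve CPM of Gzmk and Serpinb9 and the lowest of Prf1, Gzma, Gzmb, Gzmm, Unc13d and Rab27a.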

How the results depend on the processing

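Counts of called members moved as follows. For lactate against media, 2 in the fit reported, the count was 4 with edgeR's likelihood ratio test, with only the activated libraries, at an adjusted p of 0.05 and without naïve libraries 3 and 4 (chosen after seeing the data), and 1 to 4 with a library left out (1 without naïve library 1, 4 without naïve library 4). For media against naïve it was 5, then 3 with at least 10 counts in every library and 4 to 6 with a library left out. For lactate against naïve it was 7, then 3 and 5 to 7. Genes called for lactate against media numbered 3451, against 5461 at an adjusted p of 0.05 and 2252 without media library 2. With a library left out they numbered 2252 to 4845, or 7074 to 8357 for media and 8113 to 9335 for lactate against naïve cells. Totals over all genes are not given here for the other settings above, so the member counts there cannot be set against them. The count minimum removed Gzma, Gzmk and Gzmm, and under it Serpinb9, still in the fit, lost its call against naïve cells (adjusted p = 0.0126). The cause of the other moves was not tested.

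With the replicate block by donor, 1 member was called for lactate against media and 992 genes in all, and Gzmm reversed to -0.074. The block over the 8 activated libraries, added after seeing the data, called 3. Title numbers follow the donors only in part. Numbers 1 and 4 join media and lactate libraries of the same donor, and numbers 2 and 3 do not. The correlations for numbers 1 to 4 were 0.411, 0.324, -0.0132 and 0.609. As a block the title numbers gave 3, 5 and 6 called members in the 3 comparisons, without totals over all genes to set beside them.

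Directions reversed for differences near 0. Serpinb9, lactate against media, ranged from -0.0013 to 0.44 with a library left out, the lowest without lactate library 1. Unc13d, media against naïve, was -0.045 with DESeq2 and with its size factors, -0.020 with upper-quartile scaling, -0.026 with at least 10 counts, -0.26 without naïve libraries 3 and 4 and -0.20 to 0.069 with a library left out. Srgn, lactate against naïve, was 0.046 with limma voom and with the title block, 0.14 without naïve libraries 3 and 4 and -0.21 to 0.31 with a library left out. Gzmb against naïve was 6.47 (media) and 8.16 (lactate) with limma voom. For Gzma, Gzmk and Gzmm after activation, depth limits the precision, with at most 18 counts per library.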
